A study of Danio rerio with 9 samples.

Results

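Fibroblast growth factor (FGF) ligands were examined in thyroid tumors of zebrafish carrying either of a pair of human oncogenes. The set held 10 genes of the 27158 in the deposited table: fgf24, fgf18a, fgf8a, fgf7, fgf10a, fgf10b, fgf3, fgf20b, fgf1a and fgf2. They were taken by symbol as ligands of epithelium and stroma, with no threshold on their values, and they are 10 of 32 FGF genes in the table.

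RNA was taken from 4 tumors of fish expressing CCDC6-RET, a fusion that leaves the RET kinase active without ligand, and from 5 tumors of fish expressing BRAF(V600E), a mutant kinase of the ERK pathway. The zebrafish thyroglobulin promoter drove both transgenes, so the oncogene was directed to thyroid follicular cells in both groups, and no library came from normal thyroid. The CCDC6-RET construct was injected into embryos with a TdTomato thyroid reporter, which were later outcrossed. Whether the sequenced tumors carried the reporter is not stated. The BRAF(V600E) line came from an earlier model. The labels call both groups adult and give no age, dissection or sequencing run, which therefore cannot be told apart from the oncogene. The study followed tumor onset in BRAF(V600E) fish that also carried p53(M214K), and whether the sequenced tumors had that allele is not stated in the labels, so p53 status and oncogene cannot be told apart. Separate fish are not stated for the libraries, and the p-values therefore measure only the spread between these samples, which may be technical. Tumors are named here by oncogene and by the replicate number of the labels (RET tumors 2, 3, 5 and 6 and BRAF tumors 1, 2, 3, 6 and 7).

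Most FGF ligands are secreted proteins that bind FGF receptor kinases together with heparan sulfate and switch on ERK signaling in the receiving cell. In many organs the ligand and its receptor lie in different tissues. Mesenchyme typically makes FGF7 and FGF10, which act on the splice form of FGFR2 found in epithelium, and mice without Fgf10 form no thyroid. Members of the FGF8 and FGF18 groups are made by epithelia or mesenchyme depending on the site and tend to act on other receptor forms.

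Library totals ran from 8662544 to 13596477 counts. The thyrocyte markers, which identify follicular cells, were detected in both groups. Of 9 thyrocyte markers tested, 7 were higher and 0 lower in CCDC6-RET tumors, while thyroglobulin itself did not pass the test (19263 ± 7685 against 9877 ± 7530 CPM, SD, n = 4 and 5). Of 13 fibroblast markers tested, 11 were lower and 0 higher in CCDC6-RET tumors, with a summed level of 260–1222 CPM against 6158–11567 CPM in BRAF(V600E) tumors. All 12 skeletal muscle, all 10 leukocyte and all 8 cartilage and bone markers tested were also lower. Of 10 surface epithelium markers 1 was higher (cdh1), 5 were lower and 4 did not pass, and their sum was lower in every CCDC6-RET tumor (4536–12263 against 13774–27952 CPM). That sum leans on a single marker, krt5, at 8.09–145 against 4813–19304 CPM. Of 9 endothelium markers 4 were lower, 0 higher and 5 did not pass. Over all 18453 genes tested, 33.9% were higher and 38.2% lower in CCDC6-RET tumors. The counts of lower surface epithelium and endothelium markers lie near that share. In bulk tumors, fewer cells of a type and less RNA per cell cannot be told apart.

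The FGF ligands of CCDC6-RET tumors differed from those of BRAF(V600E) tumors in opposite directions. fgf24 was higher in CCDC6-RET tumors, fgf18a, fgf7, fgf10a, fgf10b, fgf20b and fgf2 were lower, and fgf1a did not pass the test. On thyrocyte marker scaling fgf24 was at -0.41, where the median of all genes tested was -3.51 (log2). On fibroblast marker scaling fgf2 was at 2.4, where that median was 3.28. Of the 10 genes, 8 had enough counts for the edgeR quasi-likelihood test at a Benjamini-Hochberg adjusted p of 0.05. Over all 18453 genes tested, 72.1% were called, 33.9% as higher and 38.2% as lower, so a count of 1 higher and 6 lower of 8 has to be read against a table in which most genes differed. fgf7, fgf10a, fgf10b and fgf20b reached the count filter through BRAF(V600E) tumors alone and so had to differ. fgf18a, at a log2 fold change of -3.28, had 2 CCDC6-RET and 5 BRAF(V600E) libraries at the cutoff. It passed only with the BRAF(V600E) tumors, so its call is limited in part by the same selection. That leaves fgf24, fgf1a and fgf2, at log2 fold changes of 3.02, 0.34 and -1.11 (median over all genes tested -0.09). fgf8a and fgf3 lay below the filter. The groups did not overlap in 9 of the 10 genes, among them fgf8a and fgf3, which were not tested. Of the 8 tested, CCDC6-RET tumors lay above in 1 and below in 6, and the groups overlapped in 1. Over all genes tested 64.8% did not overlap (29.2% with CCDC6-RET tumors above and 35.5% below). The filter itself favoured separation in the members that passed it only with the BRAF(V600E) tumors.

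**Figure D1:**
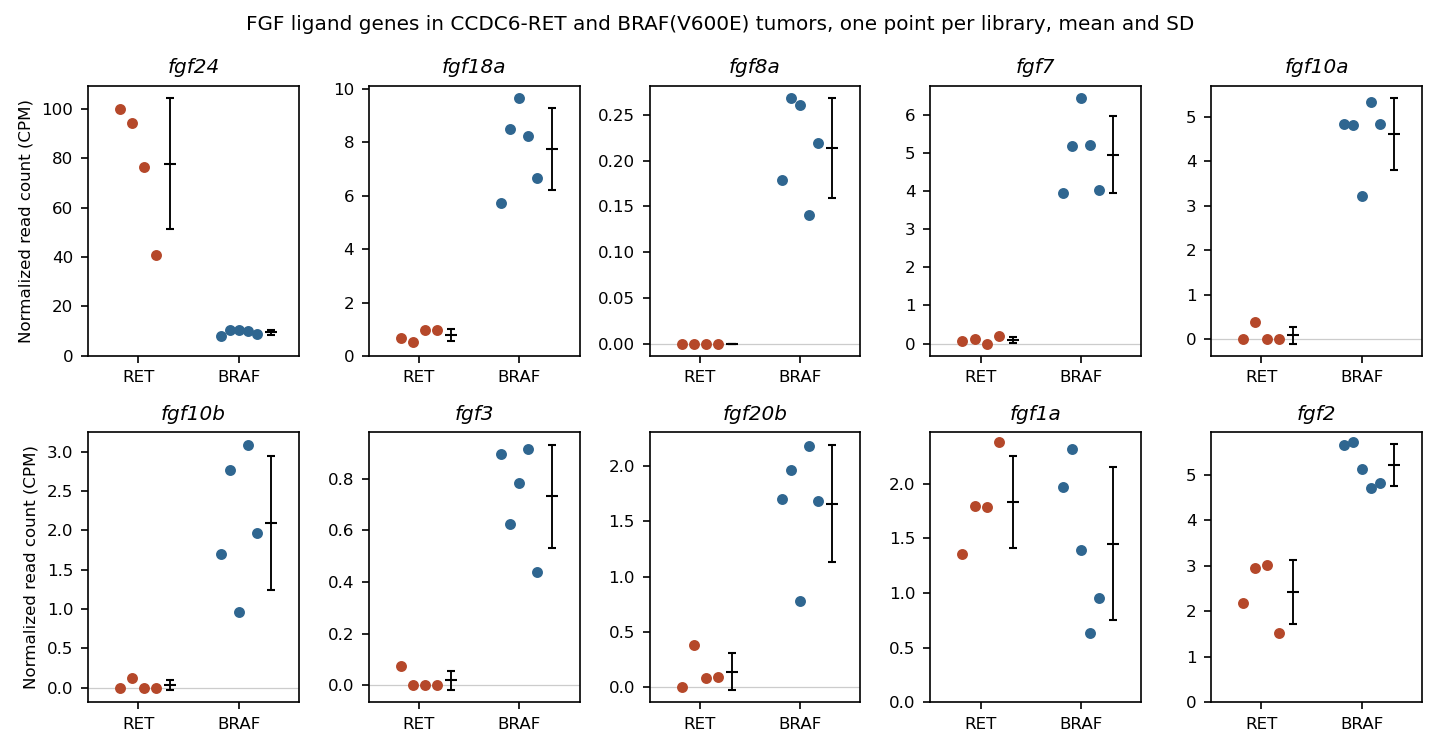
Normalized read count (CPM, read counts relative to the library total after edgeR's TMM scaling) of the 10 FGF ligand genes, 1 point per tumor library, with the mean and SD beside each group of 4 CCDC6-RET (red) and 5 BRAF(V600E) tumors (blue). The CCDC6-RET tumors lie above for fgf24, below for 8 genes, and among the BRAF(V600E) tumors for fgf1a, and each panel has its own scale.

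fgf24 is a fish gene of the FGF8, FGF17 and FGF18 group that is required in the zebrafish pectoral fin bud. It (ENSDARG00000037677) lies on chromosome 14 at 5200149–5239663 of GRCz10, the build of all positions given here. It had 1320, 734, 941 and 430 counts in RET tumors 2, 3, 5 and 6, and 92, 117, 118, 144 and 119 counts in BRAF tumors 1, 2, 3, 6 and 7. In normalized counts these were 99.7, 94.3, 76.4 and 40.9 CPM against 8.25, 10.5, 10.3, 10.1 and 8.70 CPM. Every CCDC6-RET tumor was above every BRAF(V600E) tumor, and RET tumor 6 was the lowest of its group. The means were 77.8 ± 26.5 CPM (SD, n = 4) and 9.55 ± 1.0 CPM (SD, n = 5), an 8.15-fold difference (log2 fold change 3.02 ± 0.25 SE, edgeR adjusted p = 6.83e-06).

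The spread of fgf24 differed between the groups. Its coefficient of variation was 10.5% in BRAF(V600E) tumors, where counting alone gives 9.26%, and 34.1% in CCDC6-RET tumors, where counting alone gives 3.50%. The log2 fold changes of the thyrocyte markers ran from 0.96 for tg, which did not pass the test, and 1.83 for pax8 to 4.96 for tshr and 6.19 for pax2a, with fgf24 inside that range. Scaling libraries on these markers moved the median of all genes tested from -0.09 to -3.51, and fgf24 moved with it to -0.41 ± 0.50 (SE, edgeR adjusted p = 0.424). Scaled on fibroblast markers it was at 6.41 ± 0.83. The part of thyrocyte RNA in the fgf24 difference was not tested. In its profile over the 9 libraries, each profile centred on its own mean, fgf24 was most like klhl24b, col18a1, cacnb1, dclk2a and jag2b, at root-mean-square distances of 0.21 to 0.25 log2 units among 13537 genes.

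fgf18a and fgf8a are relatives of fgf24 in the FGF8, FGF17 and FGF18 group, and both differed from it in direction. fgf18a (ENSDARG00000088048, chromosome 14, 2569122–2615520) is a counterpart of mammalian FGF18, which acts in mouse cartilage and bone. Its counts were 9, 4, 12 and 10 in the CCDC6-RET tumors and 64, 95, 111, 117 and 91 in the BRAF(V600E) tumors. The levels were 0.680, 0.514, 0.975 and 0.952 CPM against 5.74, 8.49, 9.65, 8.22 and 6.65 CPM, with no overlap. The means were 0.780 ± 0.222 CPM (SD, n = 4) and 7.75 ± 1.55 CPM (SD, n = 5), and the log2 fold change was -3.28 ± 0.29 (SE, edgeR adjusted p = 1.04e-05). As said above, fgf18a passed the count filter only with the BRAF(V600E) tumors, where it was high.

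fgf8a (ENSDARG00000003399, chromosome 13, 28364969–28371535) patterns the midbrain-hindbrain boundary and pharyngeal pouches of the zebrafish embryo. It had no count in any CCDC6-RET tumor and 2, 3, 3, 2 and 3 counts in the BRAF(V600E) tumors. Its BRAF(V600E) mean was 0.214 ± 0.0542 CPM (SD, n = 5). With 0 counts over the 4 libraries together, a level of up to 0.0684 CPM (3 counts) remains possible. Against that floor fgf8a was 3.12-fold lower there, at a level that left it out of the main test. That value omits the counting error of the BRAF(V600E) tumors and is a description. With the counting error of both groups, the 95% exact lower limit of the ratio was 2.16.

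The ligands usually assigned to mesenchyme, fgf7 and the fgf10 pair, were at or near 0 in CCDC6-RET tumors. fgf7 (keratinocyte growth factor in mammals, ENSDARG00000059387, chromosome 18, 5405157–5424073) had 1, 1, 0 and 2 counts in RET tumors 2, 3, 5 and 6, and 44, 58, 74, 74 and 55 counts in BRAF tumors 1, 2, 3, 6 and 7. These were 0.0755, 0.128, 0 and 0.190 CPM against 3.95, 5.18, 6.43, 5.20 and 4.02 CPM. No BRAF(V600E) tumor came near the CCDC6-RET range. The means were 0.0986 ± 0.0808 CPM (SD, n = 4) and 4.96 ± 1.02 CPM (SD, n = 5), the log2 fold change was -5.59 ± 0.51 (SE, edgeR adjusted p = 1.20e-05), and the pooled level in BRAF(V600E) tumors was 54.1 times that in CCDC6-RET tumors (95% exact interval 20.9–200.0).

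fgf10a and fgf10b are the zebrafish copies of FGF10. fgf10a (ENSDARG00000030932, chromosome 21, 19612178–19645986) had 0, 3, 0 and 0 counts in the CCDC6-RET tumors and 54, 54, 37, 76 and 66 in the BRAF(V600E) tumors. Its levels were 0, 0.385, 0 and 0 CPM against 4.84, 4.82, 3.22, 5.34 and 4.83 CPM, so RET tumor 3 alone had any count. The means were 0.0963 ± 0.193 CPM (SD, n = 4) and 4.61 ± 0.809 CPM (SD, n = 5), with a fitted log2 fold change of -5.80 ± 0.79 (SE, edgeR adjusted p = 1.25e-04) and a pooled ratio of 67.9 (23.0–331.0). Without RET tumor 3 the group had 0 counts, and fgf10a was 55.4-fold lower against a floor of 3 counts over the other 3 libraries. That tumor was left out because it held the counts, and the floor omits the counting error of the BRAF(V600E) tumors. The value of 55.4 is therefore a description and not a lower limit.

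fgf10b (ENSDARG00000100475, chromosome 5, 8265223–8312820) had 0, 1, 0 and 0 counts in the CCDC6-RET tumors and 19, 31, 11, 44 and 27 in the BRAF(V600E) tumors. In CPM these were 0, 0.128, 0 and 0 against 1.70, 2.77, 0.956, 3.09 and 1.97. Again RET tumor 3 was the one tumor of its group with a count, and BRAF tumor 3 was the lowest of the other group. The means were 0.0321 ± 0.0642 CPM (SD, n = 4) and 2.1 ± 0.853 CPM (SD, n = 5), the fitted log2 fold change was -5.96 ± 0.78 (SE, edgeR adjusted p = 9.90e-05) and the pooled ratio was 93.7 (16.5–3729). Without RET tumor 3, fgf10b was 25.2-fold lower against the same floor, which is likewise a description and not a lower limit.

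The fibroblast markers were lower as well, and scaling libraries on them moved the median of all genes tested to 3.28 on the log2 scale. Under that scaling the log2 difference was -3.18 ± 0.93 (SE) for fgf7, -3.31 ± 0.97 for fgf10a and -3.77 ± 1.14 for fgf10b, given as a description because these genes entered the fit through BRAF(V600E) tumors alone. fgf18a was at -0.02 ± 0.76. The part of fibroblast RNA in these differences was not tested. In its profile, fgf7 was most like caspa, tpst2, adcy6b, cyp2ad6 and pdk3b, at 0.22 to 0.29 log2 units. A processed transcript, CU462828.1, overlaps fgf7, and an antisense model, BX927394.1, overlaps fgf10a. No source used here says whether counting used strand, and reads of such pairs cannot be told apart, and the other 8 genes had no model over them.

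**Figure D2:**
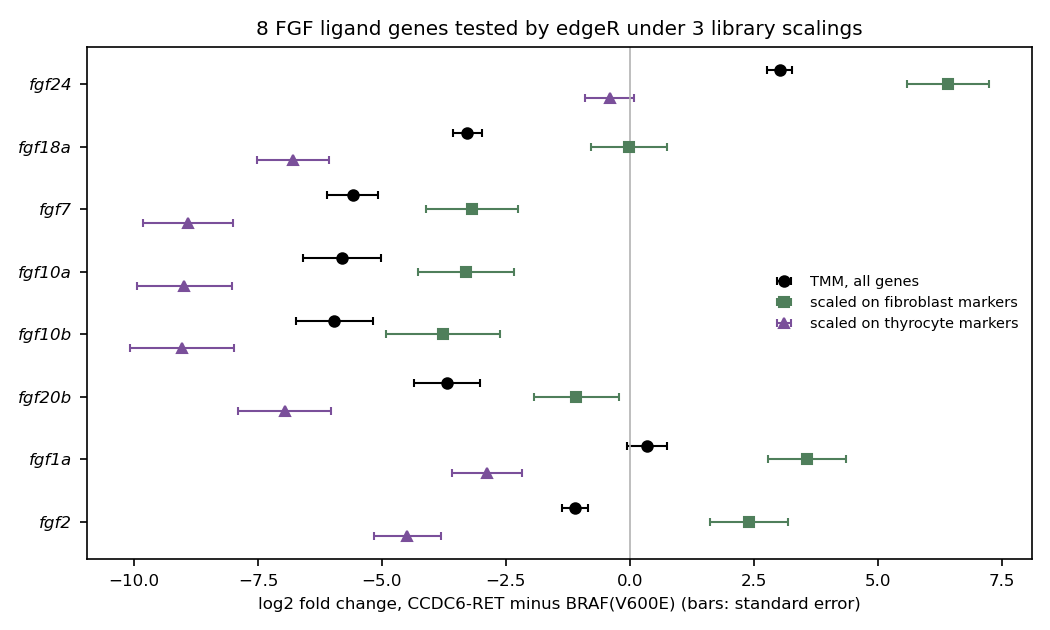
Log2 fold change (CCDC6-RET minus BRAF(V600E), edgeR, bars are SE) of the 8 FGF ligand genes tested, with libraries scaled on all genes by TMM (circles), on fibroblast markers (squares) or on thyrocyte markers (triangles). fgf7, fgf10a, fgf10b and fgf20b, which entered the fit through BRAF(V600E) tumors alone, stay below 0 under all 3 scalings. fgf18a moves to -0.02 on fibroblast markers and fgf24 to -0.41 on thyrocyte markers. These scalings move the median of all genes tested to 3.28 and -3.51.

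fgf3 and fgf20b were also lower in CCDC6-RET tumors, at low levels. fgf3 (ENSDARG00000101540, chromosome 7, 54335988–54339456) works with fgf8a in the zebrafish hindbrain and pharyngeal pouches. It had 1, 0, 0 and 0 counts in the CCDC6-RET tumors and 10, 7, 9, 13 and 6 in the BRAF(V600E) tumors, or 0.0755 CPM in RET tumor 2 against 0.439–0.913 CPM. The means were 0.0189 ± 0.0378 CPM (SD, n = 4) and 0.731 ± 0.200 CPM (SD, n = 5), and the pooled ratio was 31.9 (5.45–1289). With no filter on low counts, edgeR adjusted p was 4.66e-04 for fgf3 and 0.0046 for fgf8a. In that fit 6592 of all genes were higher and 8594 lower. Nearly all counts of fgf3 and fgf8a came from BRAF(V600E) tumors, where they were high, so these p-values add no support.

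fgf20b (ENSDARG00000086070, chromosome 14, 30151576–30153437) is the paralog of fgf20a, which is required for zebrafish fin regeneration. It had 0, 3, 1 and 1 counts in the CCDC6-RET tumors and 19, 22, 9, 31 and 23 in the BRAF(V600E) tumors. The levels were 0, 0.385, 0.0812 and 0.0952 CPM against 1.70, 1.96, 0.782, 2.18 and 1.68 CPM. The groups did not overlap, and tumor 3 of each group lay nearest the other group. The means were 0.140 ± 0.169 CPM (SD, n = 4) and 1.66 ± 0.532 CPM (SD, n = 5), with a log2 fold change of -3.69 ± 0.67 (SE, edgeR adjusted p = 7.27e-04). With each library left out, where fgf20b was still tested, the log2 fold change was -4.66 to -3.19. The lowest value was without RET tumor 3, which held 3 of its counts. On fibroblast markers, which moved the median of all genes tested to 3.28, it was -1.08 ± 0.85 (SE). As said above, fgf20b reached the count filter through BRAF(V600E) tumors alone.

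fgf1a and fgf2 belong to the ligands that lack a classical secretion signal. fgf2 (ENSDARG00000104348, chromosome 14, 544258–549849) had 29, 23, 37 and 16 counts in RET tumors 2, 3, 5 and 6, and 63, 64, 59, 67 and 66 counts in BRAF tumors 1, 2, 3, 6 and 7. These were 2.19, 2.95, 3.01 and 1.52 CPM against 5.65, 5.72, 5.13, 4.71 and 4.83 CPM, a gap between groups of moderate size with no overlap. The means were 2.42 ± 0.704 CPM (SD, n = 4) and 5.21 ± 0.463 CPM (SD, n = 5), and the log2 fold change was -1.11 ± 0.26 (SE, edgeR adjusted p = 0.00323). Scaled on the fibroblast markers, which moved the median of all genes to 3.28, fgf2 turned to 2.4 ± 0.78 (edgeR adjusted p = 0.00281).

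fgf1a (ENSDARG00000017542, chromosome 14, 23434704–23440429) was the one gene of the 10 whose groups overlapped. It had 18, 14, 22 and 25 counts in the CCDC6-RET tumors and 22, 26, 16, 9 and 13 in the BRAF(V600E) tumors. The levels were 1.36, 1.80, 1.79 and 2.38 CPM against 1.97, 2.32, 1.39, 0.632 and 0.951 CPM. The means were 1.83 ± 0.419 CPM (SD, n = 4) and 1.45 ± 0.699 CPM (SD, n = 5), with a log2 fold change of 0.34 ± 0.40 (SE, edgeR adjusted p = 0.464). The pooled level in BRAF(V600E) tumors was 0.773 times that in CCDC6-RET tumors (95% exact interval 0.563–1.06, counting error only), and no difference was detected. The coefficient of variation of fgf1a in BRAF(V600E) tumors was 48.1%, where counting alone gives 24.2%.

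An exact two-sided permutation test of each single gene, over the 126 splits of 9 libraries in 4 and 5, gave p = 0.0159 for the 9 genes without overlap, which is the smallest value this design allows, and p = 0.365 for fgf1a. For groups that do not overlap this p is fixed, so it only restates the lack of overlap, found in 64.8% of all genes tested. Of the 9 genes, fgf7, fgf10a, fgf10b, fgf20b and fgf18a passed the count filter only with the BRAF(V600E) tumors, and fgf8a and fgf3 lay below it. The genes were not spread evenly over the genome. fgf24, fgf18a, fgf20b, fgf1a and fgf2 lie on chromosome 14, which holds 5 of these 10 genes, 7 of the 32 FGF genes and 855 of all 27158 genes. The 5 include the gene that was higher, the one that overlapped and 3 that were lower.

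The summed level of the 32 FGF genes overlapped between the groups, while its makeup did not. The sums were 114, 136, 109 and 55.0 CPM in the CCDC6-RET libraries, against 69.2, 78.2, 86.6, 79.5 and 68.5 CPM in the BRAF(V600E) libraries. fgf24 took 87.6% (95% exact interval 85.9–89.3), 69.2% (66.4–72.0), 70.3% (67.7–72.7) and 74.4% (70.6–77.9) of the FGF counts in the CCDC6-RET tumors and 11.9%, 13.4%, 11.8%, 12.7% and 12.7% in the BRAF(V600E) tumors. These are shares of counts, so longer transcripts weigh more, and they are compared between groups only. The other 9 genes described above summed to 4.38–6.29 CPM in CCDC6-RET tumors and 25.6–32.2 CPM in BRAF(V600E) tumors.

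**Figure D3:**
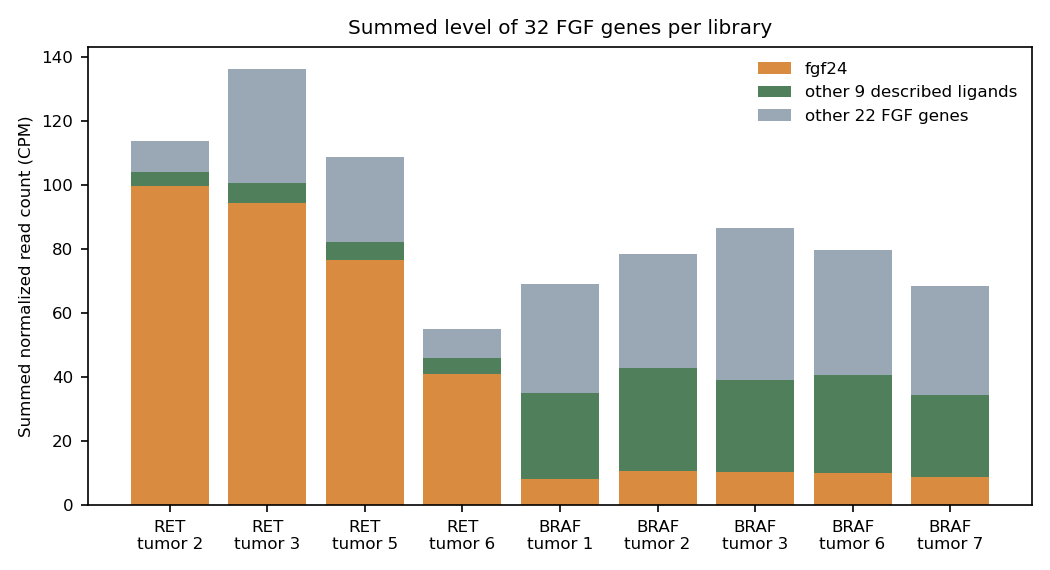
Summed normalized read count (CPM) of 32 FGF genes in each tumor library, split into fgf24, the other 9 genes described and the remaining 22. fgf24 makes up most of the bar in each CCDC6-RET tumor (69.2–87.6% of counts) and a small part in each BRAF(V600E) tumor (11.8–13.4%), while the bar heights of the groups overlap.

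Among the remaining 22 FGF genes, 10 were tested, of which 1 was higher, 6 were lower and 3 did not pass, where 33.9% of all genes tested were higher and 38.2% lower. The 6 lower genes were fgf12b, fgf16, fgf13a, fgf20a, fgf6a and fgf4. All of these but fgf12b reached the count filter through BRAF(V600E) tumors alone and so had to differ. fgf12b had 1 CCDC6-RET and 5 BRAF(V600E) libraries at the cutoff, so it too passed only with the BRAF(V600E) tumors. fgf12b encodes an intracellular FGF homologous factor that binds sodium channels, and it was at 0.731 ± 0.299 against 13.2 ± 3.26 CPM (SD, n = 4 and 5, edgeR adjusted p = 5.85e-06). fgf13a, of the same intracellular family, had 0 counts in CCDC6-RET tumors and 318 in BRAF(V600E) tumors. It was 77.0-fold lower against the floor of 3 counts, and the 95% exact lower limit of the ratio was 60.8. Likewise fgf20a (0 against 80 counts) was 19.1-fold lower against the floor (lower limit 15.0). For fgf6a, whose mammalian relative acts in muscle, the value was 26.0-fold (lower limit 20.2, 0 against 107 counts). These folds against the floor omit the counting error of the BRAF(V600E) tumors and are descriptions, not lower limits. fgf16 had 3 against 237 counts (pooled ratio 56.1, 19.0–274.0). fgf4, which lies 7952 bp from fgf3, was at 0.440 ± 0.368 against 3.05 ± 0.885 CPM (log2 fold change -2.82 ± 0.62 SE, edgeR adjusted p = 0.00241).

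A pair of other ligands, chosen after their values were seen, rested on single tumors. fgf22 had 15, 14, 239 and 5 counts in RET tumors 2, 3, 5 and 6 and 7–13 in the BRAF(V600E) tumors. Its call as higher (log2 fold change 2.92 ± 0.98 SE, edgeR adjusted p = 0.0217) was lost without RET tumor 5, in DESeq2 and in limma-voom. Without BRAF tumor 1 fgf22 fell below the count filter and was not tested. The groups overlapped, and the exact permutation p was 0.175. fgf18b, the paralog of fgf18a, was at 27.2 CPM in RET tumor 3 and did not pass the test (1.47, edgeR adjusted p = 0.164).

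The FGF receptors and ligand partners were called in both directions, at shares near those of all genes. Of 13 tested, 5 were higher, 6 lower and 2 did not pass, with a median log2 fold change of -0.75. Over all genes tested, 33.9% were higher and 38.2% lower. Among the receptor kinases, fgfr4 (log2 fold change 1.58, edgeR adjusted p = 0.0054) and fgfr1b (0.88, adjusted p = 0.0258) were higher. fgfr1a (-0.75, adjusted p = 0.0371) and fgfr3 (-2.66, adjusted p = 4.76e-04) were lower. The groups overlapped in CPM for fgfr4, fgfr1b and fgfr1a, and not for fgfr3. fgfr2, whose epithelial splice form is the receptor for FGF7 and FGF10, was at 69.9–169 CPM in CCDC6-RET and 134–195 CPM in BRAF(V600E) tumors and did not pass the test (-0.61 ± 0.27 SE, edgeR adjusted p = 0.0649). Gene counts do not separate its splice forms. The FGF-binding proteins, secreted carriers that release FGFs from the matrix, were split. fgfbp1b was higher (158 ± 91.2 against 9.61 ± 1.98 CPM, SD, n = 4 and 5, log2 fold change 4.04 ± 0.40 SE, edgeR adjusted p = 2.05e-05), while fgfbp2a (1 against 5044 counts) and fgfbp2b (3 against 3218 counts) were lower (adjusted p = 6.26e-05 and 4.72e-05). The table gives the symbol fgfbp1b to another row as well, so its reads may be split between copies.

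Of 12 genes that FGF and other ERK signals are known to induce, 7 were higher in CCDC6-RET tumors, 1 was lower and 4 did not pass, where 33.9% of all genes tested were higher. Under ribosomal protein gene scaling, 6 were higher and 4 lower, where 3071 of all 18453 genes tested were higher and 8904 lower. The ETS factor etv4 was at 212 ± 66.8 against 9.31 ± 0.814 CPM (SD, n = 4 and 5, edgeR adjusted p = 1.21e-06), and the feedback inhibitor spry1 at 19.7 ± 6.38 against 3.60 ± 0.698 CPM (adjusted p = 3.21e-05). The ERK phosphatase dusp6 did not pass (log2 fold change 0.28 ± 0.17 SE, adjusted p = 0.165).

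**Figure D4:**
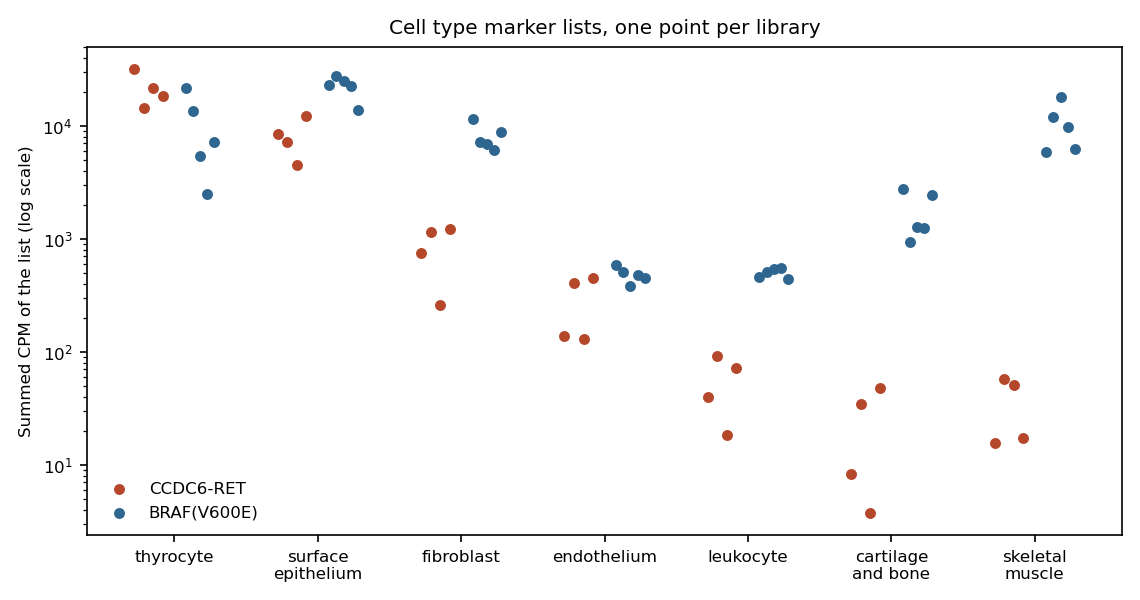
Summed CPM (log scale) of 7 cell type marker lists, 1 point per library, in CCDC6-RET (red) and BRAF(V600E) tumors (blue). Surface epithelium, fibroblast, leukocyte, cartilage and bone and skeletal muscle sums are lower in every CCDC6-RET tumor, and the thyrocyte (14407–31822 against 2512–21496 CPM) and endothelium sums (130–447 against 381–586 CPM) overlap. Thyroglobulin (tg) makes up most of the thyrocyte sum. Of the 9 thyrocyte markers, 7 are higher in CCDC6-RET tumors without overlap and 2 overlap. In BRAF(V600E) tumors krt5 is a large part of the surface epithelium sum (4813–19304 CPM).

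The marker sums are RNA levels and do not separate fewer cells of a type from less RNA per cell. Fibroblast markers were lower in CCDC6-RET tumors along with fgf7, fgf10a, fgf10b, fgf18a and fgf20b, and cartilage and bone markers were lower as well (3.74–47.7 against 929–2773 CPM). Skeletal muscle markers were at 15.4–57.8 against 5910–18002 CPM, and no marker in any of the 7 lists was at 0 in all libraries of a group. The part of fibroblast, muscle, cartilage and leukocyte RNA in the lower ligand levels was not tested. No library or fit here assigns a ligand to a cell type.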

How the data were processed

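A single deposited table held whole-number counts per gene and library, made by the authors with STAR 2.3 on GRCz10 per the submitters' processing notes. The counting program and its strand setting are not given in the sources used here. The deposited table also held counts divided by size factors (a signal), and the authors' own DESeq2 log2 fold changes, Wald scores and p-values for CCDC6-RET against BRAF(V600E), none of which was used. Counts were tested with edgeR 4.0.16 (R 4.3.3) after filterByExpr (minimum count 10), TMM scaling and a robust quasi-likelihood fit on all 9 libraries, with Benjamini-Hochberg adjustment over 18453 genes. SE was derived from the F statistic. CPM used TMM-scaled totals. Permutation tests used log2(CPM + 0.1) in scipy 1.17.1. Intervals are 95% exact and, like the floor of 3 counts over a group, cover counting error only.

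Members and gene lists were chosen with earlier results of these data known. All 10 members were described. Of other lists, up to 6 genes with a mean of 1 CPM or more were eligible for naming, by smallest p. The FGF receptor kinases, dusp6, cdh1, fgf22, fgf18b and some thyrocyte markers were named outside this rule after their values were seen. Of 136 list entries 134 were matched. Alternatives were RLE and ribosomal protein gene scaling, DESeq2 1.42.0, limma-voom 3.58.1, no filter, each library left out, and a replicate block. Scaling on fibroblast or thyrocyte markers was added after seeing the data. Scripts were tested on simulated data. No ligand or promoter sequence was used here.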

Additional observations from a re-analysis of the deposited data

Results flagged for a closer look

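In groups of 4 or 5 libraries, a library whose gap to its nearest neighbour took a large share of the group's range (Dixon's 95% critical value) was marked. This was done in 36 groups, and for continuous values chance marks about 1 in 20. That rate does not hold for counts near 0, and a group with all libraries at 0 cannot be marked. For fgf10a, RET tumor 3 was the highest of its group with 3 counts (ratio 1.0), and BRAF tumor 3 was the lowest of the other group with 37 counts, 3.22 CPM (ratio 0.757). For fgf10b, RET tumor 3 was again the highest, with 1 count (ratio 1.0). For fgf3, RET tumor 2 was the highest with 1 count (ratio 1.0). A ratio of 1.0 here only says that the other 3 libraries were at 0.

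The remaining marks concern ligands outside the 10 that were described in full. These ligands, fgf18b and fgf22, were chosen after their values were seen, so the rate above does not apply to their marks. For fgf18b, RET tumor 3 was the highest with 212 counts, 27.2 CPM (ratio 0.83). For fgf22, RET tumor 5 was the highest with 239 counts, 19.4 CPM (ratio 0.93), and BRAF tumor 1 was the highest of its group with 13 counts, 1.17 CPM (ratio 0.81).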

How the results depend on the processing

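fgf24 was the 1 member called higher under every alternative setting chosen at the outset, all 16 of them, at log2 fold changes of 2.48 to 3.26. fgf7 stayed between -6.12 and -5.16 and also passed the threshold in all 16. It reached the count filter through BRAF(V600E) tumors alone, so these calls of fgf7 add no support. The count of lower members was 5 to 6 with each library left out and 8 with no filter. With no filter, 6592 of all genes were higher and 8594 lower. The members added there, fgf8a and fgf3, were at or near 0 in CCDC6-RET tumors, so the rise adds no support. fgf20b fell below the filter without BRAF tumor 1, 2, 6 or 7. Ribosomal protein gene scaling shifted the median of all genes from -0.09 to -0.64. It cut the genes called higher from 6255 to 3071, with 8904 lower (25.6% of calls higher against 47.0%), and turned fgf1a to -0.22 (adjusted p = 0.638). Under the scalings added after seeing the data, fgf2 turned to 2.4 on fibroblast markers, and fgf24 to -0.41 and fgf1a to -2.88 on thyrocyte markers. These moved the median of all genes to 3.28 and -3.51, so most of each move is the shift of scale itself. With each library left out, 5722–6400 genes were higher and 6412–7346 lower.

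Replicate numbers 2, 3 and 6 occur in both groups, and deviations of same-numbered tumors correlated at 0.033, 0.00585 and -0.0416. These values gave no sign that the numbers pair the tumors, though so few shared numbers cannot exclude it. With the replicate block on these 6 libraries, 4 members were lower and fgf2 was at -1.26 (adjusted p = 0.052), against 5 lower and -1.22 (adjusted p = 0.0224) for the same libraries without it. All genes called were 4442 higher and 5818 lower with the block and 5331 and 6191 without. The exact permutation count of 9 genes was the same with pseudocounts of 0.5 and 1. A pseudocount keeps the order of the libraries, so this was fixed in advance for genes without overlap and adds no support. Below about 3 counts over a group, depth limits fgf8a, fgf3, fgf10a and fgf10b to bounds or wide intervals.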
